A study of Homo sapiens with 24 samples.

Results

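The measurements concern 10 genes that move platinum drugs and copper across membranes or make and use glutathione, in ovarian cancer cell lines that differ in their response to cisplatin. The genes were chosen by name: SLC31A1, SLC31A2, LRRC8A, LRRC8D, ATOX1, ATP7A, ATP7B, GCLC, GCLM and GSTP1. All 10 were found among the 28277 genes listed in both count tables. RNA-seq was performed on PEO1 and PEO4, lines of high-grade serous ovarian carcinoma that come from 1 patient, PEO1 from before and PEO4 from after the tumour became resistant to chemotherapy that included cisplatin. The first comparison, called pair A here, comprised 3 libraries of PEO1 with deficient BRCA2 and 3 libraries of PEO4, whose BRCA2 carries a reversion mutation that brings back the reading frame, both untreated. The second, called pair B, comprised 18 libraries of PEO4 and of PEO1 in which a spontaneous reversion mutation had restored BRCA2 (PEO1 BRCA2+), so that BRCA2 was functional in both lines. In pair B each line was left untreated or given 5 µM pyridostatin (PDS) for 2 or 6 h, with 3 replicates per condition. PDS is a small molecule that binds G-quadruplexes (G4s), 4-stranded structures that guanine-rich DNA can fold into. Since each is a single cultured line, differences between PEO1 and PEO4 are differences between lines.

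Cisplatin enters cells in part through the copper transporter CTR1, which SLC31A1 encodes, and through volume-regulated anion channels that are built from LRRC8 subunits. Copper that enters is handed by the chaperone ATOX1 to the copper-pumping ATPases ATP7A and ATP7B, and the same proteins can bind platinum. Inside the cell glutathione binds platinum through its thiol. Its synthesis is limited by glutamate-cysteine ligase, whose catalytic subunit is encoded by GCLC and whose modifier subunit is encoded by GCLM, and GSTP1 encodes a glutathione transferase. The transcription factor NRF2 drives many of these glutathione genes through antioxidant response elements.

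The 24 libraries held between 18699929 and 63882077 counts. In pair B the 6 untreated libraries held between 18699929 and 22375644 counts, and the 12 PDS libraries held between 33260167 and 43713947. The share of counts on ribosomal RNA genes was 0.217% to 0.474% without PDS and 0.0163% to 0.0369% with it. Depth and ribosomal RNA share thus moved with PDS without overlap, and their part in each comparison of PDS with untreated cells cannot be told apart from that of PDS. The comparisons of the lines at 1 time point and of 6 h with 2 h set libraries of like depth against each other. All 8 epithelial and ovarian carcinoma markers were detected in every library. In CPM (counts of a gene relative to the scaled total of its library), EPCAM was at 289 CPM or more and PAX8 at 105 CPM or more. Carcinoma markers also moved with PDS, in both directions. From untreated to 6 h in PEO4 of pair B, mean MUC16 went from 545 to 51.6 CPM, MSLN from 651 to 133 and EPCAM from 397 to 571. In PEO1 BRCA2+ mean MUC16 went from 413 to 68.7 CPM, MSLN from 257 to 199 and EPCAM from 312 to 401. The leukocyte markers PTPRC and CD3E had at most 2 counts in any library and the leukocyte and macrophage marker CD68 lay between 22.8 and 78.2 CPM, while the erythroid markers HBB and HBA1 had at most 2 counts. Of the endothelial markers CDH5, PECAM1 and VWF, none passed 1.98 CPM. Of the fibroblast markers, LUM stayed at or below 0.37 CPM, PDGFRB at or below 3.85 CPM, COL1A2 at or below 17.3 CPM and COL1A1 at or below 32.7 CPM. The summed level of these 4 fibroblast markers moved with PDS, from 29.7 to 31.0 CPM in untreated PEO4 of pair B to 8.47 to 12.2 CPM at 2 h and 3.29 to 4.49 CPM at 6 h. The untreated PEO4 libraries were less alike than their sums. Among them COL1A2 ranged from 1.797 to 17.3 CPM and COL1A1 from 13.7 to 28.3 CPM. In PEO1 BRCA2+ the sum was 5.14 to 7.19 CPM untreated, 3.37 to 3.62 CPM at 2 h and 2.70 to 3.61 CPM at 6 h. The summed level of the 3 endothelial markers was 1.31 to 2.72 CPM in untreated PEO4 of pair B, 0.408 to 0.764 CPM at 2 h and 0.0610 to 0.191 CPM at 6 h. The part of these markers in the comparisons with PDS was not tested. BRCA2 mRNA was at 7.99, 8.57 and 8.15 CPM in PEO1 of pair A and at 7.86, 8.80 and 8.08 CPM in untreated PEO1 BRCA2+, and the counts carry no base calls that could show its mutation.

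Promoter sequence was taken from RefSeq (GRCh38, 250 bases before to 50 bases after each start) and 9 of the 10 genes had an entry, SLC31A2 being the exception. The stretches upstream of the start of the 2 subunits of glutamate-cysteine ligase are shown because these were the genes that differed most between the lines. In GCLM (chr1:93909431-93909680, minus strand) the capitals mark the core of an antioxidant response element, TGACNNNGC, which reads on the strand opposite to the gene. In GCLC (chr6:53545102-53545351, minus strand) the capitals mark the core of a metal response element, TGCACNC or TGCGCNC on either strand, the site of the metal-responsive factor MTF1. The GSTP1 stretch (chr11:67583732-67583761, plus strand) holds an antioxidant response element core in capitals.
GCLM: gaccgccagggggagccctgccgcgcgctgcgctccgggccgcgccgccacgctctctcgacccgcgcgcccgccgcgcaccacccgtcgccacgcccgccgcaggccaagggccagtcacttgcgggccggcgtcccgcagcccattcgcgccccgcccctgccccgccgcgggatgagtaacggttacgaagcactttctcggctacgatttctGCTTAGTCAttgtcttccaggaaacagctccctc
GCLC: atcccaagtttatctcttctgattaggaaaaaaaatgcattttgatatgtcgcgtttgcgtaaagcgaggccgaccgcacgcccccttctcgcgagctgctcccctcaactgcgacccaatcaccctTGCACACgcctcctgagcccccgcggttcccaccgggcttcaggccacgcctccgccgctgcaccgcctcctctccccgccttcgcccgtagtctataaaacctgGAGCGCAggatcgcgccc
GSTP1: agcggccggcgccgTGACTCAGCactgggg
The antioxidant response element core was found in 3 of the 9 genes (ATOX1, GCLM and GSTP1), against 16.1% of all 27305 genes with an entry. The metal response element core was found in 6 of the 9 (LRRC8D, ATOX1, ATP7B, GCLC, GCLM and GSTP1), against 33.4% of all genes. Such a match describes the letters of this window and is not evidence of binding.

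Because PDS binds G4s, the same windows were searched on both strands for a G4 motif, that is 4 runs of at least 3 guanines parted by 1 to 7 bases. It was found in 6 of the 9 genes (SLC31A1, LRRC8A, ATP7A, ATP7B, GCLM and GSTP1), against 27.9% of all genes with an entry. A motif of this kind often lies in GC-rich promoters, and whether it folds in these cells was not measured here. The study mapped G4s in these lines with the antibody BG4, and those maps were not used here. The mRNAs of all 6 genes with the motif are followed after PDS below. For 4 of them, not LRRC8A and GCLM, the stretches that hold the motif are shown with it in capitals. They lie at chr9:113221516-113221543 (SLC31A1, plus strand), chrX:77910616-77910645 (ATP7A, plus strand), chr13:52012068-52012097 (ATP7B, minus strand, inside an annotated exon before another annotated start, with the guanines on the strand opposite to the gene) and chr11:67583691-67583720 (GSTP1, plus strand).
SLC31A1: gtaatgctaGGGGGCGGGAGGGGGCGGG
ATP7A: agtGGGGGTAGTCGAGGGAGGGAGGGGtaa
ATP7B: CCCCCGTTCCCGGCCCAAAGCCCGCCGCCC
GSTP1: cGGGGCTGGGGCCGGCGGGAGTCCGCGGGa

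Levels were compared between genes per kilobase of the canonical transcript in GENCODE release 44, on the scale of CPM per kilobase. GSTP1 was the most abundant of the 10 mRNAs in all 4 untreated groups, at 1039 ± 26 CPM per kilobase (SD, n = 3) in PEO1 and 942 ± 95.2 in PEO4 of pair A. ATOX1 came next in each untreated group, between 43.9 CPM per kilobase in PEO4 of pair A and 62.7 in PEO1 of pair A. The copper ATPases were low, ATP7A between 0.670 and 2.39 CPM per kilobase and ATP7B between 0.965 and 1.53. In the order of PEO1 of pair A, GSTP1, ATOX1, GCLM, LRRC8D, LRRC8A, SLC31A1 and GCLC did not overlap with their neighbours over the 3 libraries, whereas ATP7A and ATP7B did. In PEO4 of pair A, GCLC was at 17.5 ± 2.20 CPM per kilobase and lay above GCLM at 7.28 ± 1.52, the reverse of their order in PEO1, where GCLM was at 33.1 ± 1.60 and GCLC at 5.49 ± 0.103. SLC31A2 was last in both groups of pair A, with 4 to 22 counts per library, and was not tested there. In pair B it had 70 to 158 counts per library. Its mean was 0.308 CPM in PEO1 and 0.183 CPM in PEO4 of pair A, and 4.08 and 4.13 CPM in the untreated lines of pair B, a gap between tables that were processed apart and were not tested against each other. FKBP15, which SLC31A2 overlaps, was at 24.7 to 29.5 CPM in pair A and 23.2 to 28.1 CPM in the untreated libraries of pair B. SLC31A2 lies across FKBP15, LRRC8A across KYAT1, ATP7A across PGAM4 and ATP7B across TMEM272, and whether the counting used strand is not given in the sources used here, so reads could be shared between these genes.

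**Figure D1:**
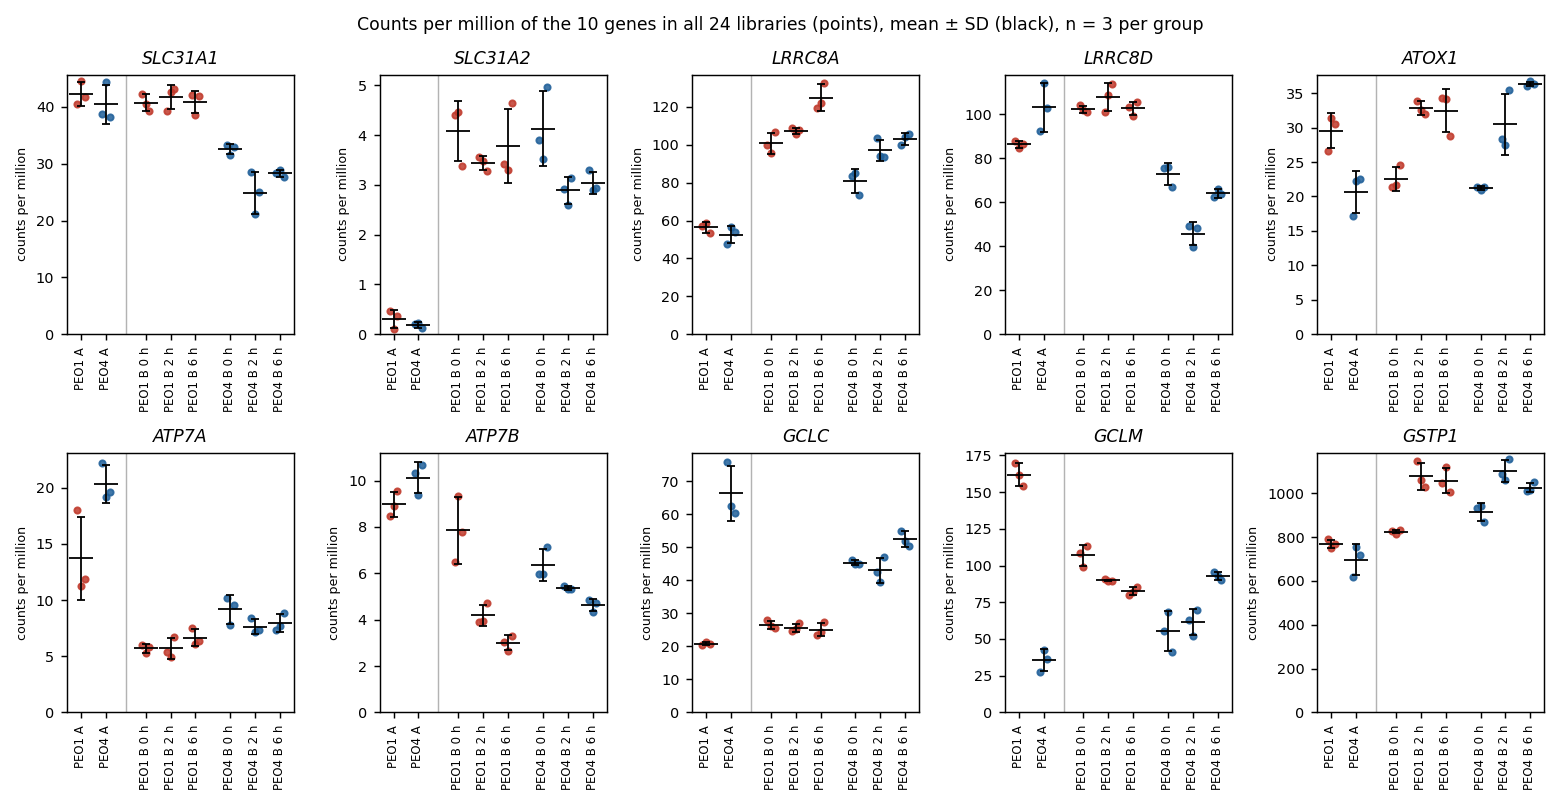
CPM (y axis, linear from 0) of each of the 10 genes in every library; each point is 1 library, black bars give the mean ± SD of 3 libraries, red is PEO1 and blue is PEO4, and a grey line parts pair A from pair B (0, 2 and 6 h of PDS). GCLC lies higher and GCLM lower in PEO4 than in PEO1 in both untreated pairs, and GSTP1 reaches 619 to 1158 CPM.

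To ask how the resistant line differed from the sensitive one, PEO4 was compared with BRCA2-deficient PEO1 in pair A. The 2 subunits of glutamate-cysteine ligase moved in opposite directions. GCLC (chr6:53497341-53545101), the catalytic subunit, was at 20.4, 21.2 and 20.8 CPM in PEO1 and at 75.8, 62.7 and 60.4 CPM in PEO4, and the groups did not overlap. The log2 fold change was 1.67 ± 0.0976 (SE; adjusted p = 1.9e-08, edgeR), or 3.19-fold higher in PEO4. GCLM (chr1:93885199-93909430), the modifier subunit that raises the enzyme's affinity for glutamate, was at 170, 162 and 154 CPM in PEO1 and at 27.7, 42.5 and 36.4 CPM in PEO4, all 3 PEO4 libraries lying below all PEO1 libraries. Its log2 fold change was -2.19 ± 0.135 (adjusted p = 2.3e-07, edgeR), or 4.57-fold lower. The ratio of GCLC to GCLM counts was 0.120, 0.131 and 0.135 in PEO1 and 2.73, 1.47 and 1.66 in PEO4. PEO4 replicate 1, which gave the highest ratio, was also the deepest library, with 63882077 counts. GSTP1 (chr11:67583812-67586653), whose protein couples glutathione to electrophiles, was at 751 to 790 CPM in PEO1 and 619 to 755 CPM in PEO4, which overlapped, with a log2 fold change of -0.14 ± 0.0889 (adjusted p = 0.18, edgeR).

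Among the copper genes of pair A, ATP7A (chrX:77910693-78050395), the copper pump of most tissues, was at 17.99, 11.3 and 11.8 CPM in PEO1 and 22.2, 19.1 and 19.6 CPM in PEO4. The groups did not overlap, PEO1 replicate 1 lying closest to PEO4. The log2 fold change was 0.57 ± 0.165 (adjusted p = 0.011, edgeR), and without PEO1 replicate 3 it was 0.47 (adjusted p = 0.050). ATOX1 (chr5:151742822-151758631), the chaperone, was lower in PEO4, at 26.7, 31.4 and 30.5 CPM in PEO1 and 17.1, 22.3 and 22.6 CPM in PEO4 (log2 fold change -0.52 ± 0.120; adjusted p = 0.0023, edgeR). ATP7B (chr13:51932669-52012132), the pump best known from the liver, overlapped between the lines at 8.47 to 9.54 CPM in PEO1 and 9.39 to 10.7 CPM in PEO4. SLC31A1 (chr9:113221544-113264492), the high-affinity copper importer, was at 40.6, 44.5 and 41.7 CPM in PEO1 and at 38.7, 44.4 and 38.3 CPM in PEO4. Its log2 fold change of -0.06 ± 0.0869 (adjusted p = 0.54, edgeR) did not pass the test.

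Of the anion channel subunits, LRRC8A (chr9:128882133-128918039), the obligatory subunit, overlapped between the lines of pair A at 53.2 to 58.6 CPM in PEO1 and 47.5 to 56.3 CPM in PEO4 (log2 fold change -0.10 ± 0.0844). LRRC8D (chr1:89821032-89936611), the subunit tied to platinum permeability, was at 88.0, 84.7 and 86.2 CPM in PEO1 and 92.1, 114 and 103 CPM in PEO4, with no overlap. Its log2 fold change of 0.26 ± 0.0830 (adjusted p = 0.017, edgeR) no longer passed the test without PEO1 replicate 2 (0.24), PEO1 replicate 3 (0.25) or PEO4 replicate 2 (0.18), with adjusted p between 0.055 and 0.085. In all, 5 of the 9 genes tested passed the test in pair A, 3 higher and 2 lower in PEO4, where 61.6% of all 15882 genes tested passed. Only GCLC and GCLM of the 9 also exceeded 2-fold, against 25.8% of all genes. Without PEO1 replicate 3, 3 of the genes passed the test, and the share of all genes passing in that fit is not given here. The median log2 fold change was -0.06 over the 9 genes and -0.01 over all genes tested.

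**Figure D2:**
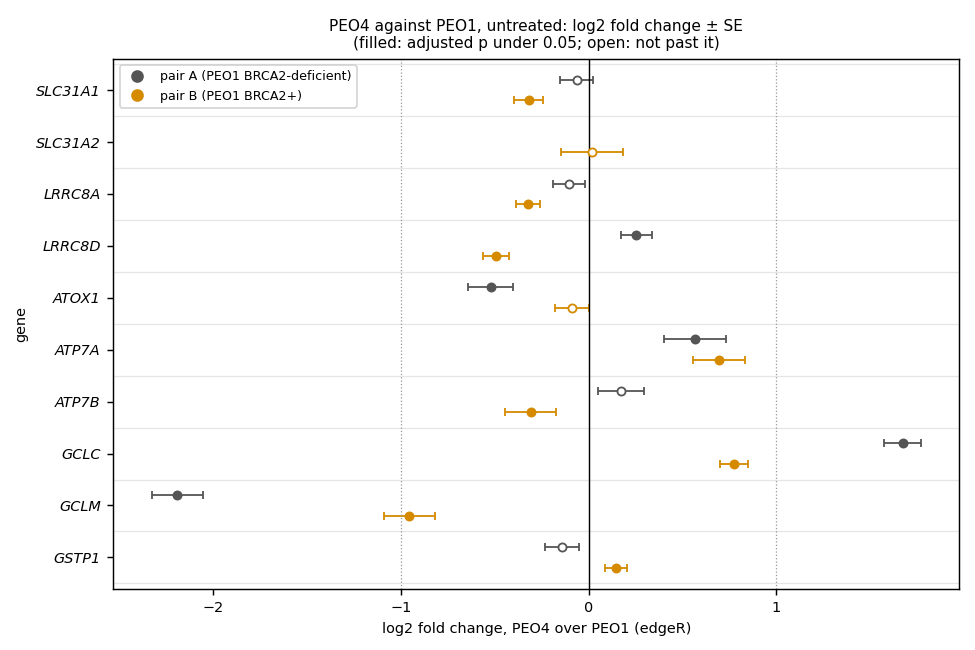
Log2 fold change of PEO4 over PEO1 (x axis) for each gene (y axis) in untreated cells, in pair A (grey) and pair B (orange); points are edgeR estimates with SE bars, filled where the adjusted p was under 0.05, dotted lines mark 2-fold, and SLC31A2 was not tested in pair A. GCLC is at 1.67 in pair A and 0.77 in pair B, GCLM at -2.19 and -0.96, and LRRC8D lies on opposite sides of 0.

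Pair B set PEO4 against PEO1 BRCA2+, in which a function that PEO1 of pair A lacks had been restored. GCLC was again higher and GCLM lower in untreated PEO4. GCLC was at 27.9, 26.1 and 25.5 CPM in PEO1 BRCA2+ and 46.2, 44.8 and 44.9 CPM in PEO4 (log2 fold change 0.77 ± 0.0726; adjusted p = 8.1e-10, edgeR). GCLM was at 108, 98.98 and 113 CPM in PEO1 BRCA2+ and 55.3, 68.7 and 41.4 CPM in PEO4 (log2 fold change -0.96 ± 0.136; adjusted p = 1.5e-05, edgeR). Neither gene overlapped between the lines, and PEO4 replicates 2 and 3 lay furthest apart for GCLM. The ratio of GCLC to GCLM counts was 0.249 ± 0.0208 in PEO1 BRCA2+ and 0.857 ± 0.216 in PEO4 (SD, n = 3). ATP7A was higher in PEO4, at 5.99, 5.25 and 5.84 CPM in PEO1 BRCA2+ and 10.2, 7.73 and 9.58 CPM in PEO4 (log2 fold change 0.69 ± 0.138; adjusted p = 9.1e-05, edgeR). It rests on 125 to 236 counts per library.

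SLC31A1, LRRC8A and LRRC8D were lower in untreated PEO4 of pair B. SLC31A1 was at 42.3, 40.6 and 39.3 CPM in PEO1 BRCA2+ and 33.3, 31.6 and 33.0 CPM in PEO4, a log2 fold change of -0.32 ± 0.0787 (adjusted p = 0.00091, edgeR). LRRC8A was at 100, 95.6 and 107 CPM in PEO1 BRCA2+ and 83.4, 85.2 and 73.4 CPM in PEO4 (-0.32 ± 0.0632; adjusted p = 8.2e-05, edgeR). LRRC8D was at 104, 102 and 101 CPM in PEO1 BRCA2+ and 75.4, 75.8 and 66.9 CPM in PEO4 (-0.49 ± 0.0696; adjusted p = 8.9e-07, edgeR). None of these 3 overlapped between the lines, and neither did ATOX1 and GSTP1. In no comparison was the share of all genes without overlap counted. SLC31A2, a relative of CTR1 that lies in internal membranes, overlapped at 3.38 to 4.46 CPM and 3.52 to 4.98 CPM. ATOX1 had a log2 fold change of -0.09 ± 0.0906 and did not pass the test. ATP7B (-0.31 ± 0.134; adjusted p = 0.044, edgeR) and GSTP1 (0.15 ± 0.0571; adjusted p = 0.025, edgeR) passed it, and the ATP7B groups overlapped. The ATP7B call was lost without PEO1 BRCA2+ replicate 2 (-0.16) or 3 (-0.32) and without PEO4 replicate 1 (-0.26) or 2 (-0.27), and that of GSTP1 without PEO1 BRCA2+ replicate 2 (0.14) and PEO4 replicate 1 (0.14) or 2 (0.13). In all, 8 of 10 genes passed the test, 3 higher and 5 lower, against 68.6% of all 17020 genes tested. None of the 10 exceeded 2-fold, against 24.8% of all genes. The medians were -0.20 over the 10 genes and 0.00 over all genes.

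The 2 line differences were then compared with each other in a joint model of the 12 untreated libraries, as the difference in pair A less that in pair B. Of the 10 genes, 5 differed between the pairs, against 36.3% of the 16888 genes tested. GCLC had a difference of 0.90 ± 0.120 on the log2 scale (adjusted p = 2.3e-05, edgeR), so that the line difference was larger in pair A. GCLM had a difference of -1.24 ± 0.244 (adjusted p = 0.0022, edgeR), again larger in pair A. LRRC8D, which was higher in PEO4 of pair A and lower in PEO4 of pair B, had a difference of 0.75 ± 0.109 (adjusted p = 5.7e-05, edgeR). ATOX1 (-0.43 ± 0.156; adjusted p = 0.039, edgeR) and GSTP1 (-0.29 ± 0.108; adjusted p = 0.046, edgeR) were close to the threshold. GSTP1 stayed past it only without PEO4 replicate 2 or 3 of pair A, and its difference lay between -0.31 and -0.21 in the other fits that left out 1 library. ATOX1 was lost without PEO1 replicate 2 (-0.39) or 3 (-0.41) or PEO4 replicate 1 (-0.31) of pair A, and without PEO1 BRCA2+ replicate 1 (-0.40) or 2 (-0.41) or PEO4 replicate 1 (-0.43) or 3 (-0.38) of pair B. The pairs differ in BRCA2 status of PEO1, medium (that of pair A held sodium pyruvate too) and library set, and these cannot be told apart.

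**Figure D3:**
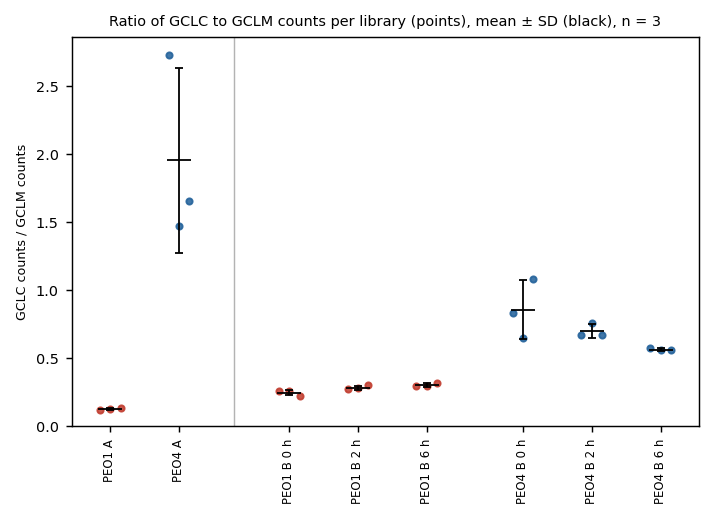
Ratio of GCLC counts to GCLM counts (y axis, linear from 0) in each of the 24 libraries; points are libraries, black bars the mean ± SD of 3, red PEO1 and blue PEO4. PEO4 lies above PEO1 in each pair and at each time. In pair B the PEO4 mean falls from 0.857 to 0.565 between untreated and 6 h of PDS. The PEO1 BRCA2+ mean rises from 0.249 to 0.304.

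The effect of PDS was followed in each line of pair B. In PEO1 BRCA2+ the copper export gene ATP7B fell with PDS and the chaperone ATOX1 and GSTP1 rose. ATP7B was at 6.47, 9.34 and 7.77 CPM untreated, at 3.90, 3.93 and 4.71 CPM after 2 h and at 3.04, 2.67 and 3.32 CPM after 6 h. Neither PDS group overlapped with the untreated one. The log2 fold change was -0.92 ± 0.133 at 2 h (adjusted p = 3.3e-06, edgeR) and -1.39 ± 0.138 at 6 h (adjusted p = 1.0e-08, edgeR), on 88 to 226 counts per library. ATOX1 was at 21.4, 21.7 and 24.5 CPM untreated and at 33.9, 32.6 and 31.95 CPM after 2 h, a log2 fold change of 0.54 ± 0.0859 (adjusted p = 1.1e-05, edgeR), and it was 0.52 ± 0.0859 at 6 h. GSTP1 was at 829, 816 and 833 CPM untreated and at 1147, 1060 and 1029 CPM after 2 h, a log2 fold change of 0.39 ± 0.0571 (adjusted p = 4.2e-06, edgeR), and it was 0.36 ± 0.0571 at 6 h. In all, 3 of 10 genes passed the test at 2 h, against 52.6% of all genes, and 5 of 10 at 6 h, against 53.0%.

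At 6 h LRRC8A rose as well in PEO1 BRCA2+, to 119, 122 and 133 CPM from 100, 95.6 and 107 CPM (log2 fold change 0.31 ± 0.0620; adjusted p = 0.00017, edgeR). GCLM had a log2 fold change of -0.37 ± 0.131 (adjusted p = 0.027, edgeR), and this call was lost without any 1 of the 6 h libraries or without untreated replicate 1 or 3, where it lay between -0.39 and -0.32. SLC31A1, LRRC8D and GCLC stayed within 0.08 of 0 on the log2 scale at both times and did not pass the test. The signs of SLC31A1 and LRRC8D depended on the scaling of libraries, whereas GCLC was below 0 with each scaling. With library totals in place of TMM factors, the median over all genes moved from -0.03 to -0.17 at both times, SLC31A1 was at -0.11 at 2 h and -0.14 at 6 h, and GCLC at -0.19 and -0.22 passed the test at both. With that scaling 6 of 10 genes passed at 2 h, and the genes of the whole table that passed at 2 h split into 2838 higher and 6342 lower, against 4489 and 4458 with TMM. At 6 h they split into 2977 and 6290, against 4593 and 4431. ATP7B, ATOX1 and GSTP1 kept their directions and passed with each scaling at both times. From 2 to 6 h, LRRC8A rose by 0.22 ± 0.0613 (adjusted p = 0.031, edgeR) and ATP7B fell further, by 0.47 ± 0.141 (adjusted p = 0.041, edgeR). These 2 of 10 compare with 6.94% of all genes, but LRRC8A lost its call without 2 h replicate 1 (0.23), 2 (0.21) or 3 (0.22) or 6 h replicate 2 (0.23) or 3 (0.17). ATP7B lost it without 2 h replicate 1 (-0.52), 2 (-0.52) or 3 (-0.38) or 6 h replicate 1 (-0.48) or 2 (-0.40).

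In PEO4, SLC31A1, SLC31A2 and LRRC8D fell with PDS at 2 h and LRRC8A rose. SLC31A1 was at 33.3, 31.6 and 33.0 CPM untreated, 28.5, 21.2 and 25.0 CPM after 2 h and 28.4, 28.9 and 27.7 CPM after 6 h. All 6 PDS libraries lay below the untreated ones. The log2 fold change was -0.39 ± 0.0787 at 2 h (adjusted p = 0.00012, edgeR) and -0.20 ± 0.0784 at 6 h (adjusted p = 0.024, edgeR). LRRC8D was at 75.4, 75.8 and 66.9 CPM untreated, 49.3, 39.5 and 48.0 CPM after 2 h and 62.1, 66.1 and 63.9 CPM after 6 h, without overlap at either time. Its log2 fold change was -0.67 ± 0.0702 at 2 h (adjusted p = 8.9e-09, edgeR) and -0.18 ± 0.0695 at 6 h (adjusted p = 0.022, edgeR). Low-level SLC31A2 had -0.51 ± 0.164 at 2 h and -0.44 ± 0.164 at 6 h (adjusted p = 0.0082 and 0.020, edgeR), which was lost without untreated replicate 3 (-0.36 at 2 h and -0.28 at 6 h) and, at 6 h, without 6 h replicate 2 (-0.40) or 3 (-0.40). FKBP15, with which SLC31A2 could share reads, had -0.25 ± 0.0653 at 2 h (adjusted p = 0.0014, edgeR) and 0.08 ± 0.0647 at 6 h (adjusted p = 0.26, edgeR) in PEO4. The 6 h calls of SLC31A1 and LRRC8D were lost without 6 h replicate 1 or 3, without untreated replicate 1, and without untreated replicate 3 for SLC31A1 (-0.20 to -0.18 in these fits) or 2 for LRRC8D (-0.17 to -0.15). LRRC8A, the partner subunit, rose at both times, from 83.4, 85.2 and 73.4 CPM to 104, 94.0 and 93.4 CPM after 2 h (log2 fold change 0.27 ± 0.0626) and to 99.6, 104 and 106 CPM after 6 h (0.35 ± 0.0626).

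Among the remaining genes in PEO4, ATOX1 rose from 21.4, 20.9 and 21.3 CPM to 28.4, 27.5 and 35.5 CPM after 2 h and 36.1, 36.7 and 36.3 CPM after 6 h. The log2 fold changes were 0.53 ± 0.0867 (adjusted p = 9.8e-06, edgeR) and 0.78 ± 0.0863 (adjusted p = 1.7e-08, edgeR). GCLM was at 63.1, 51.9 and 69.9 CPM after 2 h, overlapping with the untreated libraries, and rose to 95.4, 92.9 and 89.95 CPM after 6 h, above all of them (0.75 ± 0.134; adjusted p = 0.00014, edgeR). At 2 h the log2 fold change of GCLM was 0.16 ± 0.135, but it was 0.35 (adjusted p = 0.0085) without untreated replicate 2. GCLC rose less at 6 h, from 46.2, 44.8 and 44.9 CPM to 55.1, 52.0 and 50.3 CPM (0.21 ± 0.0686; adjusted p = 0.0082, edgeR). ATP7B was lower at 6 h, at 4.87, 4.33 and 4.70 CPM against 5.97, 5.98 and 7.14 CPM untreated (-0.46 ± 0.135; adjusted p = 0.0043, edgeR), on 119 to 204 counts per library. GSTP1 rose by 0.27 ± 0.0570 at 2 h and 0.17 ± 0.0570 at 6 h. ATP7A did not pass the test at either time (-0.27 ± 0.128 and -0.22 ± 0.128), but passed without untreated replicate 2 (-0.37 and -0.32) and, at 2 h, without 2 h replicate 1 (-0.34).

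Counted together, 6 of 10 genes passed the test in PEO4 at 2 h, 3 higher and 3 lower, against 65.3% of all genes, and 9 of 10 passed at 6 h, 5 higher and 4 lower, against 69.8%. None of the 10 exceeded 2-fold, against 17.4% of all genes at 2 h and 22.6% at 6 h. With library totals, GCLC at 6 h was at 0.05 and GSTP1 at 0.01 and neither passed, and with upper-quartile scaling they were at 0.10 and 0.05. The whole table then split at 6 h into 4519 higher and 7400 lower with library totals, against 5883 and 5998 with TMM, and at 2 h into 4431 and 6762, against 5675 and 5447. From 2 to 6 h, 5 of 10 genes were higher, against 60.1% of all genes passing in either direction. LRRC8D rose by 0.49 ± 0.0693 (adjusted p = 1.6e-06, edgeR), GCLM by 0.59 ± 0.131 (adjusted p = 0.0013, edgeR) and GCLC by 0.28 ± 0.0672 (adjusted p = 0.00079, edgeR). ATOX1 rose by 0.25 ± 0.0814 (adjusted p = 0.0096, edgeR), which was lost without 2 h replicate 1 (0.21) or 2 (0.19), and SLC31A1 by 0.19 ± 0.0771 (adjusted p = 0.040, edgeR). The SLC31A1 call was lost without 2 h replicate 2 (0.09) or 3 (0.19) or any 1 of the 6 h libraries (0.18 to 0.21).

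**Figure D4:**
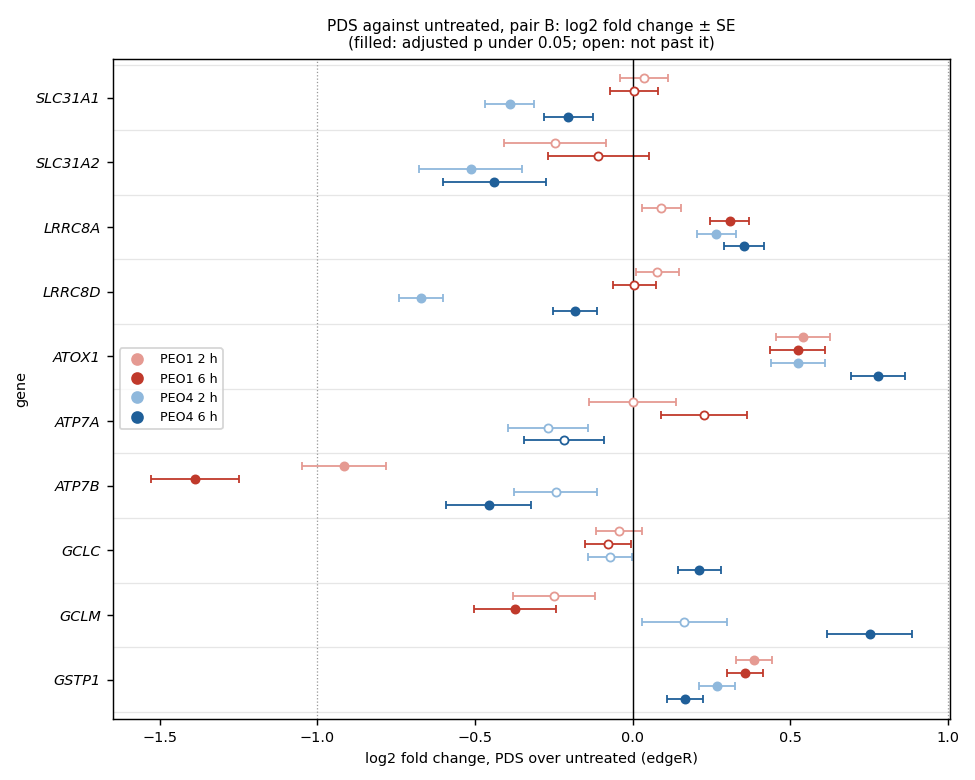
Log2 fold change of PDS over untreated cells in pair B (x axis) for each gene (y axis), in PEO1 BRCA2+ (red, pale at 2 h and dark at 6 h) and PEO4 (blue, likewise); points are edgeR estimates with SE bars, filled where the adjusted p was under 0.05. ATP7B in PEO1 BRCA2+ lies furthest to the left, at -1.39 after 6 h, and GCLM at 6 h lies on opposite sides of 0 in the lines, at -0.37 and 0.75.

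Whether the lines responded differently was tested as the response of PEO4 less that of PEO1 BRCA2+. At 2 h LRRC8D (-0.75 ± 0.0977; adjusted p = 1.4e-06, edgeR) and SLC31A1 (-0.43 ± 0.109; adjusted p = 0.0034, edgeR) responded more negatively in PEO4. ATP7B differed the other way (0.67 ± 0.188; adjusted p = 0.0066, edgeR), as it fell in PEO1 BRCA2+. In PEO4 the ATP7B mean was 6.36 CPM untreated and 5.37 CPM after 2 h, which did not pass the test. These 3 of 10 compare with 37.3% of all genes. At 6 h GCLM differed by 1.12 ± 0.188 (adjusted p = 0.00017, edgeR), with PEO4 at 0.75 and PEO1 BRCA2+ at -0.37. ATP7B differed by 0.93 ± 0.193 (adjusted p = 0.00031, edgeR) and GCLC by 0.29 ± 0.1001 (adjusted p = 0.020, edgeR). These 3 of 10 compare with 47.4% of all genes. The GCLC difference was 0.25 and did not pass the test without PEO1 BRCA2+ 6 h replicate 1, PEO1 BRCA2+ untreated replicate 1 or PEO4 6 h replicate 1. At 2 h, GCLM was at 0.41 ± 0.188 (adjusted p = 0.10, edgeR) and passed without PEO4 2 h replicate 2 (0.52) or PEO4 untreated replicate 2 (0.59). For ATOX1, which rose in both lines, the difference at 2 h was -0.02 ± 0.122 and did not pass the test.

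The lines were also compared with each other at each time of PDS. After 2 h LRRC8D was at -1.24 ± 0.0693 in PEO4 against PEO1 BRCA2+ (adjusted p = 3.3e-14, edgeR), SLC31A1 at -0.75 ± 0.0762, GCLC at 0.75 ± 0.0694, GCLM at -0.54 ± 0.131 and ATP7A at 0.43 ± 0.128. ATP7B, which was lower in untreated PEO4, was higher there after 2 h, at 0.36 ± 0.132 (adjusted p = 0.016, edgeR), a call lost without PEO1 BRCA2+ replicate 1 (0.31) or 2 (0.31). LRRC8A was at -0.15 ± 0.0615 (adjusted p = 0.036, edgeR) and lost its call without PEO1 BRCA2+ replicate 1 (-0.14) or 3 (-0.15) or PEO4 replicate 2 (-0.13) or 3 (-0.12), while ATOX1, at -0.10 ± 0.0818, passed without PEO4 replicate 3 (-0.24). In all 7 of 10 genes passed at 2 h, against 72.9% of all genes. After 6 h GCLC was at 1.06 ± 0.0694 (adjusted p = 8.6e-13, edgeR), LRRC8D at -0.68 ± 0.0683, ATP7B at 0.62 ± 0.139, SLC31A1 at -0.53 ± 0.0758 and LRRC8A at -0.28 ± 0.0613. GCLM, at 0.17 ± 0.130, did not pass the test. These 5 of 10 compare with 68.6% of all genes at 6 h. SLC31A2 (-0.31 ± 0.157) and ATP7A (0.25 ± 0.126) did not pass, but did without PEO1 BRCA2+ replicate 2 (-0.40) and replicate 1 (0.35), respectively.

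The other genes of the same pathways were read from lists written for this purpose. Beside the counts of each list stand the shares of all genes tested that passed in either direction, which were 61.6% between the untreated lines of pair A, 68.6% between those of pair B, 53.0% after 6 h of PDS in PEO1 BRCA2+ and 69.8% after 6 h in PEO4. Of the other LRRC8 subunits, LRRC8C was lower in PEO4 in both untreated pairs, at 9.33, 7.58 and 8.27 CPM in PEO1 and 3.67, 4.20 and 3.73 CPM in PEO4 of pair A (log2 fold change -1.12) and by -2.71 in pair B. LRRC8B was higher in PEO4 of pair A (0.48) and lower in PEO4 of pair B (-0.92), the same signs as LRRC8D, and LRRC8E was at 0.08, which did not pass the test, and 0.20, a call lost without PEO4 replicate 1 (0.17). After 6 h of PDS, LRRC8C rose in PEO4 by 1.33 and LRRC8B by 0.45. Of the other copper handling genes, 2 of 17 tested were higher and 8 lower in PEO4 of pair A, with a median of -0.35, and 2 were higher and 9 lower in pair B, with a median of -0.28. These 10 and 11 of 17 lie near the shares of 61.6% and 68.6% over all genes, whose medians were -0.01 and 0.00. The furthest were LOXL2, a copper-dependent lysyl oxidase (-3.94 in pair A and -3.77 in pair B), STEAP3, a metalloreductase (-1.04 in pair A), and SCO2, which delivers copper to cytochrome oxidase (-1.46 in pair B). After 6 h of PDS 9 were higher and 3 lower in PEO1 BRCA2+, where STEAP2, another metalloreductase, was at -1.07, and 9 were higher and 5 lower in PEO4, against 53.0% and 69.8% of all genes.

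Of 15 other carriers linked to platinum drugs, 5 were higher and 8 lower in PEO4 of pair A, where 61.6% of all genes passed, and 7 higher and 6 lower in pair B, where 68.6% did. The organic cation transporter SLC22A3 was at 424, 391.7 and 393 CPM in PEO1 and 0.308, 0.510 and 0.306 CPM in PEO4 of pair A. In pair B it was at 100, 116 and 94.7 CPM in untreated PEO1 BRCA2+ and at 3.12, 19.8 and 4.15 CPM in untreated PEO4, where replicate 2 stood apart from the others, and at 92.05, 96.5 and 96.6 CPM in PEO4 after 2 h of PDS. The log2 fold change in PEO4 at 2 h was 3.44, and 4.72 without untreated replicate 2. ABCC3, an exporter of organic anions and glutathione conjugates, was at 134, 80.8 and 163 CPM in untreated PEO4 and at 6.11, 6.79 and 5.28 CPM after 2 h (-4.39), and ABCC1, which exports glutathione conjugates, was at -1.45 at 2 h and -2.01 at 6 h. In PEO1 BRCA2+ 1 carrier was higher and 5 lower at 6 h, against 53.0% of all genes passing. ABCC4, an exporter of cyclic nucleotides and drugs, was higher in PEO4 of pair A (1.39). The depth and ribosomal RNA share that moved with PDS moved with these changes too, and their part was not tested.

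Of the other genes of glutathione synthesis, cystine supply and turnover, 7 of 16 were higher and 4 lower in PEO4 of pair A (61.6% of all genes passed), and 4 of 15 higher and 7 lower in pair B (68.6%). OPLAH, which returns oxoproline to glutamate, was higher in PEO4 of both pairs (1.13 and 1.65) and GGT7, a gamma-glutamyltransferase family member, in pair A (1.48). ANPEP, an aminopeptidase that cleaves cysteinylglycine, was lower in PEO4 of both pairs (-1.72 and -2.82), and in PEO4 it was at 2.76 after 6 h of PDS, and at 3.36 without untreated replicate 2. CBS, the entry enzyme of transsulfuration, was lower in PEO4 of pair B (-1.27) and in PEO1 BRCA2+ after 6 h of PDS (-1.13). CHAC2, which degrades glutathione, was at 1.58 in PEO4 after 6 h. Of the other glutathione transferases, 3 of 13 were higher and 6 lower in PEO4 of pair A, and 5 of 14 higher and 3 lower in pair B, against 61.6% and 68.6% of all genes. After 6 h of PDS 3 of the 14 were higher and 4 lower in PEO1 BRCA2+, and 4 higher and 6 lower in PEO4, against 53.0% and 69.8% of all genes.

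Of the glutathione peroxidases, glutaredoxins and thioredoxins, 6 of 19 were higher and 10 lower in PEO4 of pair A, and 9 of 20 higher and 6 lower in pair B, against 61.6% and 68.6% of all genes. TXNIP, the inhibitor of thioredoxin, was higher in PEO4 of both pairs (2.67 and 3.83). GPX4, which reduces lipid peroxides, was lower in PEO4 of pair A (-1.14). After 6 h of PDS 12 of the 20 were higher and 2 lower in PEO1 BRCA2+, with GPX1 at 1.08, and 13 were higher and 4 lower in PEO4, with PRDX1 at 1.38 and GLRX2 at 1.495, against 53.0% and 69.8% of all genes. Their medians, 0.36 and 0.22, stood beside -0.03 and -0.03 over all genes. Of the NRF2 pathway and its targets, 6 of 27 were higher and 15 lower in PEO4 of pair A, with a median of -0.29, and 12 were higher and 7 lower in pair B, with a median of 0.19, where 61.6% and 68.6% of all genes passed. HMOX1, which degrades haem, was at 34.0, 43.7 and 41.8 CPM in PEO1 and 1.54, 3.18 and 2.27 CPM in PEO4 of pair A (-4.14), and FTL, the ferritin light chain, was at -1.41 there. BACH1, a repressor of HMOX1, was at 1.36. In pair B the log2 fold change of HMOX1 was -0.80. NFE2L2, which encodes NRF2, was at 0.06 in pair A, where it did not pass the test, and at 0.74 in pair B, and KEAP1, its inhibitor, was at -0.20 and 0.23. The KEAP1 call in pair A was lost without PEO1 replicate 2 (-0.21) or 3 (-0.17) or PEO4 replicate 2 (-0.20) or 3 (-0.21).

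**Figure D5:**
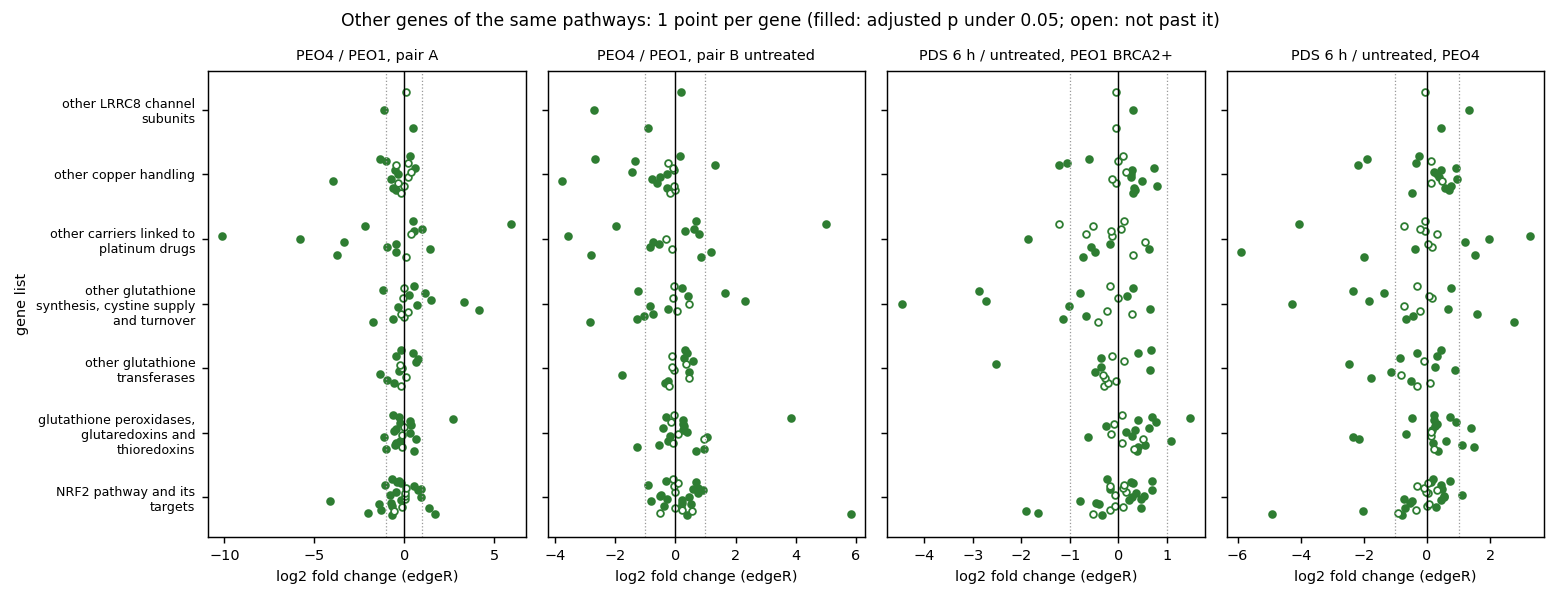
Log2 fold changes (x axes, each with its own scale) of the other genes in 7 lists (y axis) for PEO4 over PEO1 in both untreated pairs and for 6 h of PDS over untreated cells in each line; each point is 1 gene tested with edgeR, filled where the adjusted p was under 0.05, and dotted lines mark 2-fold. Points lie on both sides of 0 in each list with more than 3 genes, and SLC22A3 in pair A lies furthest to the left.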

How the data were processed

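RNA-seq was analysed in 24 libraries: 6 of untreated PEO1 and PEO4 (pair A, prepared with a directional poly(A) kit) and 18 of PEO1 BRCA2+ and PEO4, untreated or with PDS (pair B), 3 biological replicates per condition as the labels give them. Per gene, the authors deposited raw whole-number counts, not normalized; the submitters' processing notes name FastQC, fastp, STAR and featureCounts on hg38, and the annotation and the strand setting are not given in the sources used here. Lines without readable counts, 2 in pair A and 1 in pair B, were left out.

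Tests used edgeR 4.0.16 in R 4.3.3 (filterByExpr with a minimum count of 10 and total of 15, TMM scaling, robust quasi-likelihood fit, all groups of a table in 1 fit, Benjamini-Hochberg adjustment over all genes). "Past the test" is an adjusted p under 0.05, and 2-fold adds an absolute log2 fold change over 1. CPM use TMM-scaled totals. The SE of a log2 fold change was taken as its absolute value divided by the square root of the quasi-likelihood F statistic. Fits were tested on simulated data. Of the alternatives tried, DESeq2 1.42.0 was one. For SLC22A3, ANPEP, LRRC8E and KEAP1, leaving out single libraries was chosen after seeing the data. Depths of 18699929 to 63882077 counts limit low genes, and SLC31A2 in pair A failed the filter. Replicates were set against each other by a chi-square of their counts, and every pair within a group lay further apart than sampling alone would put them. PEO4 replicate 1 of pair A lay furthest from its mates, at 52.1 and 44.5 per degree of freedom, against 9.50 between replicates 2 and 3. Libraries of different groups were not compared in this way.

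The genes and lists were chosen with earlier results of these data known. All 10 genes are named. From the 116 other listed genes, the text names per list and comparison up to 2 higher and 2 lower genes with the largest change, past the test, over 2-fold and with mean log2 CPM of at least 3, plus LRRC8B, LRRC8C, LRRC8E, NFE2L2, KEAP1 and BRCA2. A search for genes with a like pattern was limited to members past 2-fold in both untreated pairs, and none qualified. Of the pairs of same-numbered libraries from different groups, 0 of 3 in pair A and 1 of 45 in pair B had deviations from the group means that correlated over 0.1. Among differently numbered pairs these were 0 of 6 and 3 of 90. The numbers thus showed no pairing by this measure, which cannot establish that the samples were unpaired.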

Additional observations from a re-analysis of the deposited data

Results flagged for a closer look

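The 10 genes were each tested for the line difference in the 2 h response, in the 6 h response and for the difference between pairs. Of all genes, 37.3%, 47.4% and 36.3% passed in these tests. Among the 10 genes, 11 differences were tested directly and passed. Of these, 3 concerned the response to PDS at 2 h, PEO4 less PEO1 BRCA2+: LRRC8D at -0.75, SLC31A1 at -0.43 and ATP7B at 0.67 on the log2 scale. At 6 h ATP7B differed by 0.93, GCLC by 0.29 and GCLM by 1.12. The other 5 concerned the difference between the untreated lines, in pair A less pair B: GCLC at 0.90, GCLM at -1.24, LRRC8D at 0.75, ATOX1 at -0.43 and GSTP1 at -0.29. The last 2 were close to the threshold (adjusted p = 0.039 and 0.046, edgeR) and were lost when single libraries were left out. The GCLC difference at 6 h (adjusted p = 0.020, edgeR) was also lost without certain single libraries. The cause of these differences was not tested. With 3 libraries per group, no test for single libraries that stand apart was run.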

How the results depend on the processing

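The share of all genes passing under each alternative is not given here, so whether the whole set moved alike is not shown. Counts of the named genes past the test moved by over 1.5 times in few alternatives. At an adjusted p under 0.01 they were 3 in pair A, 0 from 2 to 6 h in PEO1 BRCA2+ (edgeR; 2 at an unadjusted p under 0.05, and 2 with DESeq2 at an adjusted p under 0.05), 5 in PEO4 at 6 h and 3 for the difference between pairs, which was also 3 with no filter on low counts. With only the groups compared, the line difference at 6 h had 8. With library totals the counts were 6 in PEO1 BRCA2+ at 2 h and 1 from 2 to 6 h. The line difference of the 6 h response had 5 with library totals, DESeq2 size factors, upper-quartile scaling and a minimum CPM of 1 in 3 libraries, as ATP7A and GSTP1 passed. Leaving out 1 library gave 3 to 5 in pair A, 0 to 1 from 2 to 6 h in PEO1 BRCA2+, 3 to 4 in PEO4, 2 to 5 for the 6 h response difference and 3 to 5 for the difference between pairs. The replicate block kept 5 genes past the test in pair A and 9 in PEO4 at 6 h, and moved the count to 4 for the 6 h response difference (ATP7A, adjusted p = 0.040) and 4 for the difference between pairs (GSTP1, adjusted p = 0.077). It changed no other call. Sign changes were seen only among values that passed the test in neither fit. In PEO1 BRCA2+ at 2 h, ATP7A was at -0.15 with library totals, -0.0784 with the upper quartile, -0.0118 with the minimum CPM, -0.0034 with only the groups compared and -0.0011 with the block. SLC31A1 was at -0.11 and -0.0431 with library totals and the upper quartile, LRRC8D at -0.0691 and -0.00067, and LRRC8A at -0.0559 with library totals. At 6 h, SLC31A1 and LRRC8D were at -0.14 and -0.14 with library totals, -0.0820 and -0.0824 with the upper quartile, -0.0203 and -0.0207 with the minimum CPM, -0.0041 and -0.0045 with DESeq2 size factors, -0.0028 and -0.0033 with DESeq2, and -0.0049 and -0.0054 with only the groups compared. The 2 h response difference of ATOX1 was 0.0024 with library totals and 0.00048 with the upper quartile. Leaving out 1 library gave, from 2 to 6 h in PEO1 BRCA2+, ATOX1 -0.0593 to 0.0629, GCLC -0.10 to 0.0118, GSTP1 -0.0708 to 0.0170, SLC31A1 -0.0714 to 0.01004 and SLC31A2 -0.0329 to 0.22. For PDS in PEO1 BRCA2+ it gave ATP7A -0.13 to 0.10 and GCLC -0.0721 to 0.0023 at 2 h, and LRRC8D -0.0023 to 0.0399 and SLC31A1 -0.0122 to 0.0560 at 6 h. In PEO4 it gave GCLM -0.0020 to 0.35 at 2 h and ATP7A -0.0254 to 0.13 from 2 to 6 h. The response differences were ATOX1 -0.15 to 0.0482 and GCLC -0.11 to 0.0249 at 2 h, and LRRC8A -0.0167 to 0.0897 at 6 h. The line difference gave SLC31A2 -0.14 to 0.12 untreated and GSTP1 -0.0103 to 0.0709 at 2 h, and the difference between pairs ATP7A -0.245 to 0.12. The cause of these moves was not tested.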

Other observations

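Metallothioneins, small cysteine-rich proteins that bind copper and zinc and can bind platinum, were looked at after the data were seen. Their paralogs are near-identical, so the counting could split reads between them. The genes were taken by symbol, so the counts and medians include the pseudogenes MT1L, MT1DP and MT1JP where tested. In untreated PEO1 BRCA2+ MT1DP was at 0.330 to 0.527 CPM and MT1JP at 0.0958 to 0.248 CPM. In PEO1 BRCA2+ 9 of the 10 tested were higher after 6 h of PDS and none lower, with a median log2 fold change of 1.63 (edgeR), where 27.0% of all genes were higher and the median of all genes was -0.03. MT2A was at 948, 849 and 919 CPM untreated and at 1530, 1596 and 1407 CPM after 6 h. MT1X was at 27.0, 20.9 and 20.6 CPM untreated, 82.4, 69.1 and 64.4 CPM after 2 h and 119, 126 and 89.0 CPM after 6 h, with a log2 fold change of 2.29 ± 0.129 (adjusted p = 4.2e-10, edgeR). In PEO4, 4 of the 10 were higher and 1 lower at 6 h, against 69.8% of all genes passing in either direction, with a median of 0.39 beside -0.03 over all genes. MT1X was at 19.5, 17.3 and 19.1 CPM untreated and 33.3, 32.4 and 34.6 CPM after 6 h. The response of MT1X in PEO4 less that in PEO1 BRCA2+ was -1.45 ± 0.185 at 6 h (adjusted p = 8.1e-06, edgeR). By this measure 4 of the 10 were lower and 0 higher, against 47.4% of all genes passing in either direction. The abundant MT2A (-0.14 ± 0.157; adjusted p = 0.50, edgeR) and MT1E (-0.22 ± 0.123; adjusted p = 0.15, edgeR) did not pass, nor did MT1L (0.44 ± 0.243; adjusted p = 0.16, edgeR). Between the untreated lines 6 of 9 were lower and none higher in PEO4 of pair A, and 4 of 10 lower and 1 higher in pair B, against 61.6% and 68.6% of all genes passing in either direction. The 6 included MT3, at 0.669 CPM or less in every library, and the 1 higher was MT1L. MT1E was at 358, 309 and 333 CPM in PEO1 and 128, 173 and 176 CPM in PEO4 of pair A. Depth and ribosomal RNA share moved with PDS, and their part in this was not tested.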
